A study of Mus musculus with 2 samples.

Results

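The genes described here encode 10 subunits of condensin and cohesin, the ring-shaped protein complexes that fold and hold chromosomes. They were selected by gene symbol, and each was found as a single row among the 23282 rows of the expression tables. Of the 10 genes, 6 belong to condensin (Smc2, Smc4, Ncapd2, Ncapg, Ncaph and Ncapg2) and 4 to cohesin (Smc1a, Smc3, Rad21 and Stag2). RNA was taken from wild-type mouse T cells that were differentiated into Treg cells in culture, with the vehicle DMSO (control) or with 10 μM Tubastatin A (TSA), an inhibitor of the tubulin deacetylase HDAC6. Naïve CD4+ T cells came from the spleens of female C57BL/6 mice aged 7 to 10 weeks. Both cultures received plate-bound anti-CD3ε (5 μg/ml), soluble anti-CD28 (2 μg/ml), TGF-β1 (5 ng/ml), IL-2 (1 ng/ml) and antibodies against IFN-γ and IL-4 (10 μg/ml each), and RNA was isolated after 1 day. There was 1 library per condition, so none of the differences below could be checked on replicates, and the action of TSA cannot be told apart from other ways in which 2 separate cultures or libraries may differ. Whether cells of several mice were pooled was not stated.

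Condensin and cohesin are built alike. In each, a pair of long SMC ATPases (SMC2 with SMC4 in condensin, SMC1A with SMC3 in cohesin) is closed into a ring by a kleisin subunit and bound by further subunits made of HEAT repeats. Condensin extrudes loops of DNA and compacts chromosomes in mitosis. Condensin I and condensin II share the SMC pair and differ in the kleisin and HEAT-repeat subunits. Cohesin joins sister chromatids from S phase to anaphase and, throughout interphase, forms chromatin loops together with CTCF. Naïve T cells are quiescent, and stimulation through CD3 and CD28 brings them into the cell cycle.

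The libraries held 10846171 (control) and 10432647 (TSA) reads on genes. Values are given as log2 of the normalized read count plus 1, and the reads behind them were worked out from the steps of the low values. The library method, QuantSeq, reads only the 3′ end of polyadenylated transcripts, and values were not divided by transcript length. Levels of different genes therefore compare reads, not molecules. Folds are TSA over control. The 95% interval beside a fold (exact, after Clopper and Pearson) reflects counting error alone: it sets 1 library against the other and says nothing about the spread between cultures. The detection floor of 3 reads was 0.277 CPM (reads scaled to library size) for the control and 0.288 CPM for TSA. All 6 T cell marker genes examined (Cd3d, Cd3e, Cd3g, Cd4, Lck and Cd28) had over 3 reads in both libraries, with a summed CPM of 1290 and 1402. The summed reads in the control and TSA libraries were 12 and 15 for 4 B cell markers, 28 and 25 for 5 myeloid markers, 80 and 87 for 2 CD8 markers, 0 and 1 for 2 NK cell markers (Klrb1c was at 0 in both) and 42 and 54 for 4 erythroid markers (Hba-a2 was at 0 in both). In bulk RNA of this kind, fewer cells that express a gene and less RNA per cell cannot be told apart.

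All 10 subunit genes had at least 212 reads in each library, and all had a lower deposited value in the TSA library, as did 48.6% of all tested genes and 57.1% of abundant ones. For Stag2 this direction turned with total-read scaling. Of these 6 condensin genes, all but Ncaph were lower by more than each cohesin gene. The median log2 fold change was -0.76 for the 6 condensin genes and -0.28 for the 4 cohesin genes, against 0.015 for all 12164 genes tested (at least 10 reads in at least 1 library) and -0.06 for the 8188 abundant genes among them (mean normalized count 100 or more), to which all 10 subunit genes belonged. The counting interval lay below no change for 9 of the 10 genes, whereas this was true of 28.0% of all tested genes and of 36.5% of the abundant ones. With total-read scaling it was 8, without Ncaph, and with Rn45s, the ribosomal RNA precursor, left out of the total it was 7, without Ncaph and Rad21. Under these scalings the shares of all tested genes were 21.6% and 20.6%, and those of abundant genes 27.8% and 26.3%. The 2-fold threshold used in the study was passed by 1 of the 10 genes, Ncapg, and by 3.15% of all tested genes and 1.31% of the abundant ones in the same direction. No subunit gene was higher, whereas 11.5% of all tested and 1.48% of abundant genes were higher past 2-fold, and 28.1% and 23.4% had an interval above no change.

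**Figure D1:**
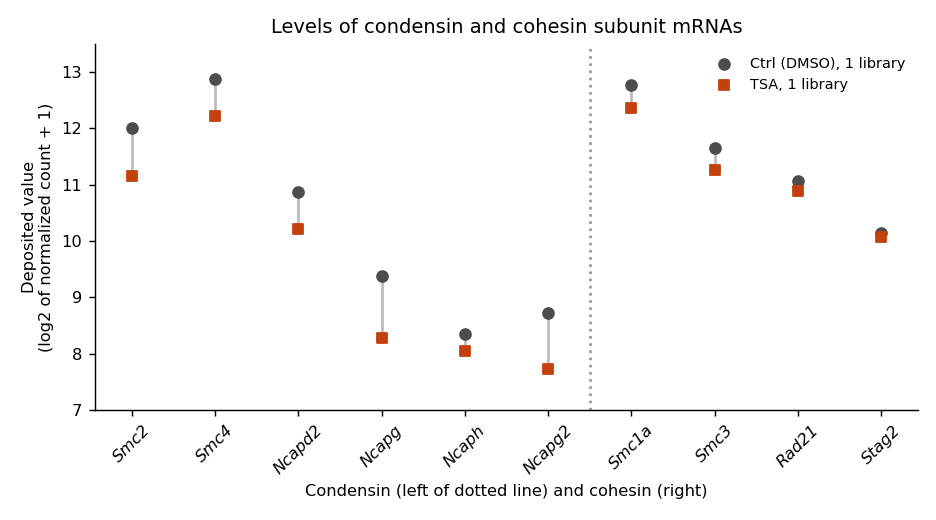
Deposited values (log2 of normalized count plus 1, vertical axis) of the 10 subunit genes in the control library (circles) and the TSA library (squares), 1 library each, with condensin left and cohesin right of the dotted line. Each TSA value lies under its control value, by 1.11 for Ncapg and by 0.06 for Stag2, where the symbols overlap.

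The SMC pair of condensin had the most reads of the complex. Smc4 had 7479 control reads and 4790 TSA reads, which are deposited values of 12.88 and 12.22. Its fold change was 0.634, with a counting interval of 0.612 to 0.658. Smc2, its partner, had 4103 and 2298 reads and values of 12.01 and 11.16. The fold change of Smc2 was 0.555 (0.527 to 0.584), a larger fall than that of Smc4, and the intervals of the partners did not overlap. Within a library, where no scaling enters, read ratios of subunits could be compared; apart from the ratios of condensin to cohesin and of condensin I to condensin II, the pairs were picked after the values were seen. There were 0.549 reads of Smc2 per read of Smc4 in the control and 0.48 in the TSA library, a ratio of ratios of 0.875 (95% conditional exact interval 0.821 to 0.932). In the GENCODE M21 annotation of GRCm38 (mm10), Smc2 is a protein-coding gene on chromosome 4 from 52439243 to 52488260 and Smc4 on chromosome 3 from 69004738 to 69034623, both on the plus strand.

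The subunits of condensin I, the form that reaches chromosomes after the nuclear envelope breaks down, were lower to unequal degrees. Ncapg, a HEAT-repeat subunit, had 664 control reads and 311 TSA reads (values of 9.38 and 8.28). This was the largest change among the 10 genes, a fold of 0.465 (0.404 to 0.531), and 2.46% of all tested genes had a lower log2 fold change. Ncapd2, the other HEAT-repeat subunit, had 1870 and 1195 reads (10.88 and 10.22), a fold of 0.633 (0.588 to 0.681). Ncaph, the kleisin, had 323 and 265 reads (8.35 and 8.05), a fold of 0.813 (0.688 to 0.959), the smallest change in condensin, and 21.9% of all tested genes had a lower log2 fold change. The interval of Ncaph held no change with total-read scaling (0.722 to 1.01), with or without Rn45s, and at the 99% level (0.653 to 1.01). The ratio of Ncapg to Ncaph reads therefore moved from 2.06 in the control library to 1.17 in the TSA library, a ratio of ratios of 0.571 (0.46 to 0.709), and that of Ncapg to Ncapd2 from 0.355 to 0.26 (ratio of ratios 0.733, 0.627 to 0.856). Ncapg lies on chromosome 5 from 45669919 to 45700546, Ncapd2 on chromosome 6 from 125168007 to 125191701 on the minus strand and Ncaph on chromosome 2 from 127103809 to 127133954 on the minus strand. Exons of Lcorl on the opposite strand reach into the last 1000 bases of Ncapg. Lcorl itself gave 385 and 254 reads and a fold of 0.654 (0.555 to 0.767), and since it was not stated whether reads were counted by strand, reads of these neighbours may be mixed.

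Ncapg2, the HEAT-repeat subunit of condensin II that corresponds to Ncapg, had 420 control reads and 212 TSA reads (8.73 and 7.73). Its fold change of 0.501 (0.422 to 0.591) lay next to the 2-fold threshold, and the intervals of Ncapg2 and Ncapg overlapped over most of their length. The remaining subunits of condensin II, the HEAT-repeat subunit Ncapd3 and the kleisin Ncaph2, were taken from a list of related genes. Ncapd3 gave 793 and 701 reads and a fold of 0.875 (0.79 to 0.97), though its interval held no change with total-read scaling (0.829 to 1.02), with or without Rn45s, and at the 99% level (0.765 to 1.002). Ncaph2 gave 1694 and 1482 reads and a fold of 0.866 (0.807 to 0.929). Ncapg2 was thus lower by more than both other condensin II subunits, with ratios of ratios of 0.571 (0.468 to 0.696) to Ncapd3 and 0.577 (0.48 to 0.693) to Ncaph2. Exons of Sco2 and Tymp on the opposite strand reach into the last 1000 bases of Ncaph2, with 428 and 282 reads of Sco2 and 32 and 25 of Tymp. Set against Ncapg2 alone, the 3 condensin I genes together rose in proportion, from 6.8 to 8.35 reads per Ncapg2 read (ratio of ratios 1.23, 1.03 to 1.47). Set against all 3 condensin II genes they fell, from 0.983 to 0.74 (0.752, 0.694 to 0.816), so the balance of the 2 forms of condensin took its direction from the subunits counted. Ncapg2 lies on chromosome 12 from 116405402 to 116463731 on the plus strand.

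**Figure D2:**
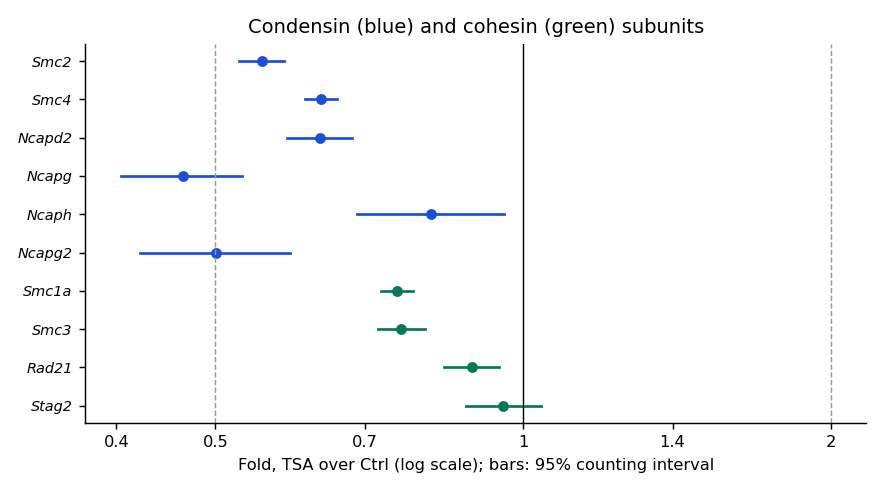
Fold change (TSA over control, log axis) of each subunit gene with its 95% counting interval, condensin in blue and cohesin in green; solid line, no change, dashed lines, 2-fold. The intervals of Ncapg and Ncapg2 hold a fold of 0.5, that of Ncaph reaches 0.959, and that of Stag2 holds no change.

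Both SMC genes of cohesin were lower, by less than those of condensin. Smc1a had 6988 control reads and 5315 TSA reads (12.78 and 12.37), a fold of 0.753 (0.727 to 0.781). Smc3 had 3217 and 2469 reads (11.66 and 11.26), a fold of 0.76 (0.721 to 0.801). There were 2.17 reads of Smc1a per read of Smc3 in the control and 2.15 under TSA, and the interval of the ratio of ratios, 0.93 to 1.06, held no change. The log2 folds of -0.41 and -0.40 lay above those of 14.7% and 15.4% of all tested genes. Smc1a is on chromosome X from 152016428 to 152062694 and Smc3 on chromosome 19 from 53600398 to 53645833, both on the plus strand.

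The kleisin and the HEAT-repeat subunit of cohesin were lower by less than the SMC pair. Rad21, the kleisin that separase cuts at anaphase, had 2125 and 1910 reads (11.06 and 10.89), a fold of 0.89 (0.836 to 0.947). Scaled by total reads without Rn45s, its interval of 0.887 to 1.004 held no change. Stag2 had 1121 and 1083 reads (10.14 and 10.08). Its fold change was 0.957 (0.879 to 1.04), so a difference was not detectable at this depth, and 42.4% of all tested genes had a lower value. The sign of Stag2 depended on the scaling: its log2 fold change was -0.06 as deposited and 0.006 with total-read scaling. Against Smc3 within a library, Rad21 rose from 0.661 to 0.774 reads per read (ratio of ratios 1.17, 1.08 to 1.27) and Stag2 from 0.349 to 0.439 (1.26, 1.14 to 1.39). Stag1, the paralog of Stag2, had 650 and 543 reads and a fold of 0.827 (0.737 to 0.929). The ratio of Stag1 to Stag2 reads went from 0.58 to 0.501 (ratio of ratios 0.865, 0.749 to 0.998). Rad21 lies on chromosome 15 from 51962240 to 51991747 on the minus strand and Stag2 on chromosome X from 42149317 to 42277185 on the plus strand.

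Summed by complex, the 6 condensin genes had 14859 control reads and 9071 TSA reads, and the 4 cohesin genes had 13451 and 10777. There were thus 1.105 condensin reads per cohesin read in the control and 0.842 under TSA. The ratio of these ratios was 0.762 (0.735 to 0.79), and without the most abundant gene of each complex, Smc4 and Smc1a, it was 0.686 (0.651 to 0.723). The order of the genes by reads changed only between neighbours: Smc4 was first in the control and Smc1a under TSA, Smc2 and Smc3 changed places, and so did Ncapg2 and Ncaph at the end of the order. Of the 6 condensin genes, 5 had a lower fold change than every cohesin gene, the exception being Ncaph, whose fold change lay between those of Smc3 and Rad21. The condensin II subunits Ncapd3 and Ncaph2 are not in these sums. They had 2487 control and 2183 TSA reads together. Their folds of 0.875 and 0.866 also lay between those of Smc3 and Rad21. The ratio of condensin to cohesin with them included was not computed.

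**Figure D3:**
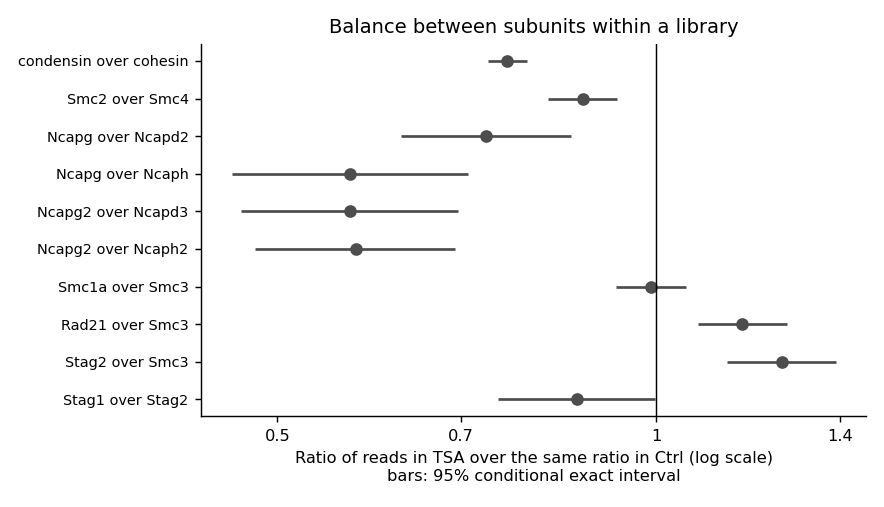
Change in the balance of reads between subunits, as the ratio of 2 read counts in the TSA library over the same ratio in the control library (log axis), with 95% conditional exact intervals. Condensin over cohesin is 0.762, Smc1a over Smc3 spans no change, and the ratios of Ncapg to Ncaph and of Ncapg2 to Ncapd3 are both 0.571.

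**Figure D4:**
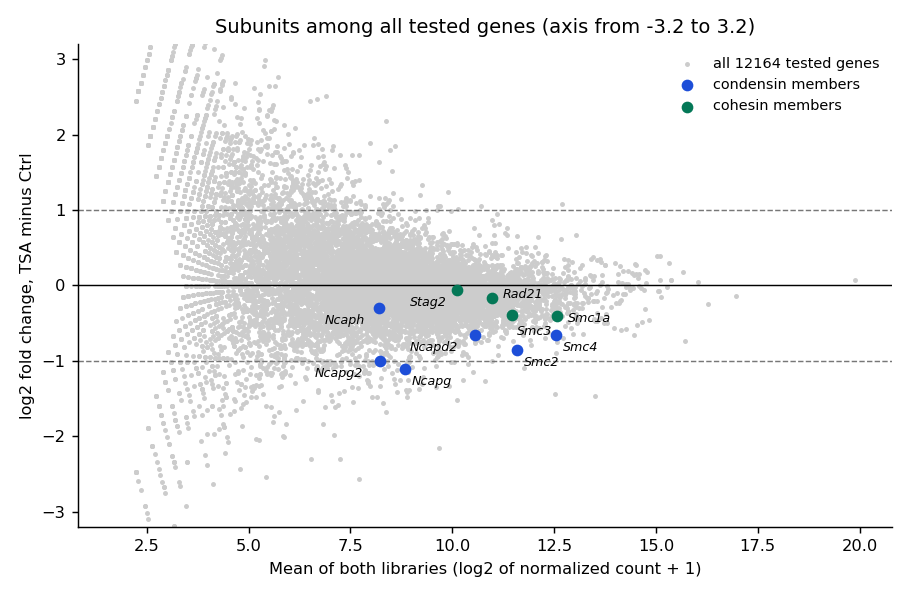
Log2 fold change (TSA minus control) against the mean deposited value for the 12164 tested genes (grey), condensin (blue) and cohesin (green); dashed lines, 2-fold. The vertical axis reaches 3.2 on either side of 0, which leaves out 364 genes, and the condensin genes other than Ncaph lie between -1.11 and -0.66.

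Stretches before the transcription start of members are shown, with the words CCAAT and TTTGAA in capitals on either strand. CCAAT is the CCAAT box, bound by NF-Y. TTTGAA is the cell cycle genes homology region (CHR), bound by MuvB complexes. The sequences come from RefSeq on GRCm38.p6, run 5′ to 3′ on the strand of the gene, and were shortened so that no annotated exon is included. The windows of 7 of the 10 genes were held in the table of promoters used here, and Smc4, Rad21 and Stag2 have no entry in it.
Smc2 (chr4:52439071-52439220, plus strand): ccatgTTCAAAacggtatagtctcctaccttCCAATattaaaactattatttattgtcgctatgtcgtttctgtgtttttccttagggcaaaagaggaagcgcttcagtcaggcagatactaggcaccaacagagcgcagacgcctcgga
Ncapd2 (chr6:125191702-125191800, minus strand): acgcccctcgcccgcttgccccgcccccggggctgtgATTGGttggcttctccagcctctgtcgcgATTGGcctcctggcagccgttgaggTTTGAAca
Ncapg (chr5:45669769-45669918, plus strand): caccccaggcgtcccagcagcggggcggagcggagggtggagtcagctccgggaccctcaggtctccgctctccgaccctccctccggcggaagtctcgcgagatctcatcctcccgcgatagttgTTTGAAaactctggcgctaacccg
Ncapg2 (chr12:116405252-116405401, plus strand): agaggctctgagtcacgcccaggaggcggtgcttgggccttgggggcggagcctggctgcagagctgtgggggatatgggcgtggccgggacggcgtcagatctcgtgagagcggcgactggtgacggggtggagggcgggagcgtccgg
Ncaph (chr2:127133955-127134104, minus strand): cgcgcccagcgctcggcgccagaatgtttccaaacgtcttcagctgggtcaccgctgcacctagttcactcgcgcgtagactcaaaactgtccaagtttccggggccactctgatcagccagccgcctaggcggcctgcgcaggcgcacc
Smc1a (chrX:152016296-152016427, plus strand): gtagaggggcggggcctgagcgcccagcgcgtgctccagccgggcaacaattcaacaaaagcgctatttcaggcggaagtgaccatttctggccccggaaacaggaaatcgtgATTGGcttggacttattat
Smc3 (chr19:53600246-53600395, plus strand): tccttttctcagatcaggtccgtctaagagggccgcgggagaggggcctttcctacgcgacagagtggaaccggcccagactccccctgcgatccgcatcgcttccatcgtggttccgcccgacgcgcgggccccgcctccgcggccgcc

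In the whole windows of 300 bases, 250 before and 50 after the RefSeq start, a CCAAT box and a CHR word were found together in 3 of the 7 genes, the condensin genes Smc2, Ncapd2 and Ncapg, and in 6.95% of all 32851 windows of the table. A CCAAT box, with or without a CHR word, was held by 4 of the 7 windows and 37.4% of all, and a CHR word by 4 of the 7 and 17.9% of all. In Ncapg the CHR word begins 30 bases before the start and the CCAAT box 176 bases before it, outside the stretch shown. In Ncapd2, CCAAT boxes begin 177, 148 and 48 bases before the start and the CHR word 123 bases before it; the box at 48 lies inside an exon of the GENCODE annotation and outside the stretch shown. In Smc2 the CHR words begin 145 bases before and 27 bases after the start, the latter outside the stretch shown, with a CCAAT box at 119 bases before it. The window of Ncapg2 has a CHR word 18 bases before the RefSeq start, which lies inside an exon of the GENCODE annotation, and no CCAAT box. Smc1a has a CCAAT box 19 bases before the start and no CHR word. Smc3 and Ncaph have neither of these words. Whether the words and the folds are related was not tested. The words TTCCCGC or TTGGCGC, which E2F factors can bind, were found on either strand in 5 of the 7 windows (Ncapd2, Ncapg, Ncaph, Ncapg2 and Smc1a) and in 6.81% of all windows. The last letters of ATTGG, the CCAAT box on the other strand, can be the first of TTGGCGC, but no such overlap occurred in the 7 windows. A match describes the letters of the window and is not evidence that a factor binds there.

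Of 36 other genes that act with condensin and cohesin, 33 were tested. The fold change passed 2-fold downwards for 6 (against 3.15% of all tested genes) and upwards for 2 (against 11.5%), and the counting interval lay below no change for 22 (against 28.0%) and above it for 4 (against 28.1%). All but Stag3 and Eid3, 31 of the 33, belonged to the abundant genes, of which 1.31% were lower and 1.48% higher past 2-fold and 36.5% and 23.4% had an interval below and above no change. With total-read scaling these were 19 (against 21.6% of all tested and 27.8% of abundant genes) and 6 (against 33.7% and 30.2%), since Ncapd3, Smc5 and Eid3 no longer differed by more than counting error and Nipbl and Esco1 did. The median log2 fold change of the 33 was -0.27. Rad21l had no read in either library, Smc1b had 1 and 3 reads and Rec8 had 9 and 8, which is too few to test; all 3 encode cohesin subunits of meiosis. Stag3, a meiotic subunit too, gave 19 and 44 reads and a fold of 2.23 (1.31 to 4.16). Rises past 2-fold were mostly of less abundant genes such as this one. Of the 1400 tested genes higher past 2-fold, 121 were abundant.

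For the genes that load cohesin onto DNA no difference was detectable in the deposited values. Nipbl gave 3033 and 3116 reads and a fold of 1.02 (0.967 to 1.07), which became an interval of 1.02 to 1.12 with total-read scaling, and the interval of its partner Mau2, with 258 and 278 reads, was 0.897 to 1.27. Those that act on loaded cohesin were lower. Wapl, which opens the ring, gave 1497 and 1300 reads and a fold of 0.86 (0.798 to 0.927), and its partners Pds5a and Pds5b had folds of 0.763 (0.662 to 0.876) and 0.856 (0.784 to 0.934). Cdca5 encodes sororin, which counters Wapl once sister chromatids are joined, and was lower by more, with 341 and 172 reads and a fold of 0.501 (0.413 to 0.602). The boundary factor Ctcf gave 2857 and 2053 reads and a fold of 0.712 (0.672 to 0.753).

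The 2 enzymes that acetylate SMC3 gave unlike values. Esco2, whose acetylation of SMC3 in S phase makes cohesion stable, had 264 control reads and 100 TSA reads, a fold of 0.377 (0.295 to 0.474). Esco1, which acts through interphase, gave 270 and 307 reads and a fold of 1.13 (0.953 to 1.33). The ratio of Esco2 to Esco1 reads fell from 0.978 to 0.326 (ratio of ratios 0.334, 0.248 to 0.446). Hdac8, the deacetylase that removes this mark, was higher, at 85 control and 179 TSA reads, with a fold of 2.07 (1.6 to 2.73).

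The genes for protection and cleavage of cohesin had the widest range of folds of the roles examined. Espl1, which encodes separase, gave 212 and 59 reads and a fold of 0.279 (0.203 to 0.369), and 0.756% of all tested genes had a lower log2 fold change. Sgo1, the shugoshin that guards cohesin at centromeres in mitosis, had 547 and 247 reads (0.448, 0.383 to 0.521), and Sgo2a, its paralog, had 475 and 189 (0.395, 0.331 to 0.467). Pttg1, which encodes securin, the inhibitor of separase, went the other way, with 705 control and 1413 TSA reads and a fold of 1.98 (1.81 to 2.18). There were 3.33 reads of Pttg1 per read of Espl1 in the control and 23.9 under TSA, and the interval of the ratio of ratios was 5.29 to 9.91.

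**Figure D5:**
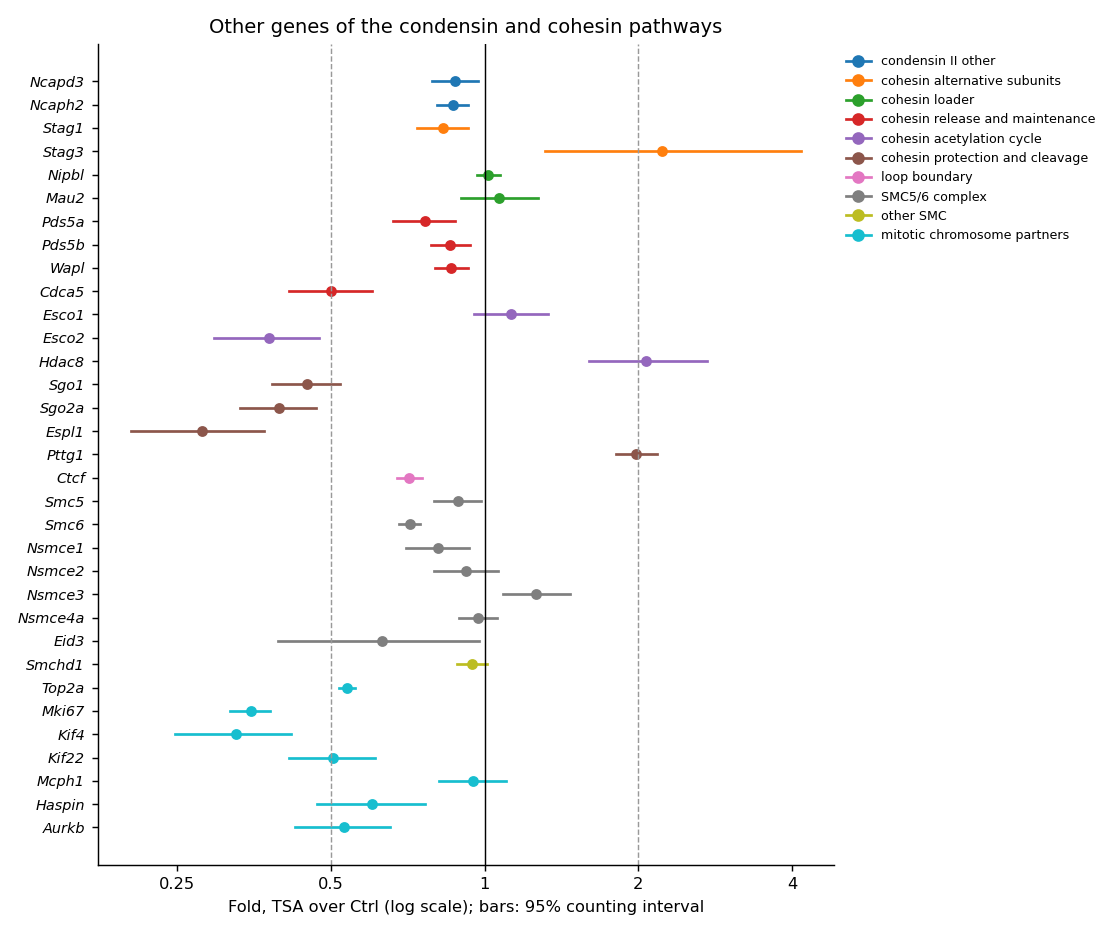
Fold change (TSA over control, log axis) with 95% counting intervals for the 33 tested genes that act with condensin and cohesin, coloured by role; solid line, no change, dashed lines, 2-fold. Espl1, Kif4, Mki67, Esco2, Sgo2a and Sgo1 lie below 0.5, and Stag3 and Hdac8 lie above 2.

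The third SMC complex, SMC5/6, which acts in DNA repair, was measured with 7 genes. Smc6 gave 3863 and 2779 reads and a fold of 0.712 (0.678 to 0.748), and Smc5, its partner, gave 749 and 670 reads and a fold of 0.886 (0.797 to 0.984). Nsmce1 and Eid3 were lower as well, with folds of 0.809 (0.703 to 0.93) and 0.63 (0.394 to 0.975), and Nsmce3 was higher, with 314 and 400 reads and a fold of 1.26 (1.09 to 1.47). The calls of Smc5 and Eid3 were lost with total-read scaling, with or without Rn45s, with upper-quartile scaling and at the 99% level. The intervals of Nsmce2 and Nsmce4a held no change. Smchd1, an SMC protein of the inactive X chromosome, had 1708 and 1628 reads, and its interval of 0.881 to 1.01 held no change.

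Genes whose products work beside condensin on mitotic chromosomes had an interval below no change in 6 of 7 cases, against 28.0% of all tested genes and 36.5% of abundant ones. Top2a, the topoisomerase that untangles DNA while condensin compacts it, gave 8156 and 4420 reads and a fold of 0.537 (0.517 to 0.557), with an interval that overlapped that of Smc2. Mki67, whose product coats mitotic chromosomes and marks cycling cells, had 1861 and 653 reads (0.348, 0.317 to 0.38). The chromokinesin Kif4, which binds condensin I, had 242 and 79 reads (0.326, 0.247 to 0.418), and Kif22, another chromokinesin, had a fold of 0.504 (0.414 to 0.609). The mitotic kinases Aurkb and Haspin had folds of 0.53 (0.426 to 0.654) and 0.603 (0.47 to 0.765). Mcph1, an inhibitor of condensin II, had 356 and 341 reads, and its interval of 0.815 to 1.1 held no change. Top2a, Mki67, Kif4, Kif22, Aurkb and Haspin were lower, as the condensin genes were. For Mcph1 no difference was detectable, and Pttg1, which encodes securin, was higher. The part of the number of cycling cells in the lower condensin values was not tested.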

How the data were processed

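RNA of 1 control and 1 TSA culture was sequenced by the authors from QuantSeq libraries as single-end 75-nt reads and analysed with ExDEGA. The submitters' processing notes name Bowtie2, bedtools and mm10; the annotation, the use of strand and the normalization are not given in the sources used here. The authors deposited log2 values, each the log2 of a normalized count plus 1. Taken back from that scale, values fell on steps of 1.005 (control) and 0.995 (TSA) per read, and 99.95% and 99.94% of values of 1 to 300 reads lay within 0.1 of a whole number. Above this range reads are rounded estimates, and 1940 control rows just above 0 were read as 0 reads. The planned design allowed for counts or log2 values, and the deposited log2 values were used.

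Log2 fold changes are TSA minus control, with the pseudocount of 1 that the values hold, which understates changes of low genes. A gene was tested if either library held 10 or more of its reads, and called past 2-fold. No p-value was computed, since there was 1 library per condition. Intervals on reads are exact Clopper-Pearson intervals of 95%, and those of ratios within a library are conditional exact intervals. Intervals and floors cover counting error only. They treat each read as independent. PCR copies were not told apart, so the intervals may be too narrow even for counting error. The functions were tested on simulated data.

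Members and lists were chosen with earlier results of these data known. All members are named. Of the related genes, the rule names those past 2-fold, those with an interval that excludes no change, those too low to test and the one with the most reads in each role; Mau2, Mcph1, Nsmce2 and Nsmce4a were named after their values were seen. Of 36 related genes, 5 were matched by older symbols. Positions are from GENCODE M21 and promoters from RefSeq (GRCm38.p6). Protein sequences were not used here. Alternatives covered scaling, pseudocount, filter, threshold and interval. Figures were drawn with matplotlib 3.10.9; statistics used scipy 1.17.1 and numpy 2.4.6, and tables pandas 2.3.3, under Python 3.11.15.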

Additional observations from a re-analysis of the deposited data

How the results depend on the processing

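No paired analysis was possible because each condition had a single library; for the same reason leaving out replicates was not run. Of 80 values of the 10 genes under 8 settings of scaling and pseudocount, 74 lay within the gene's counting interval and 6 outside it, in the same direction, and 2 of those within it changed sign: Stag2 had a log2 fold change of 0.006 with total-read scaling and 0.021 with total reads without Rn45s (the ribosomal RNA precursor), which shift all values by 0.07 and 0.085. With the latter the median of the condensin genes was -0.67 and that of the cohesin genes -0.20. The number of subunit genes lower past 2-fold, 1 as deposited, was 2 with a pseudocount of 0.1, 5 at a 1.5-fold threshold and 0 when the whole interval had to lie beyond 2-fold. Of the related genes, 12 were lower at 1.5-fold, 1 was higher when normalized counts had to average 50 and 0 were higher with the whole interval. The number higher was 3 with total-read scaling, with or without Rn45s, with upper-quartile scaling and without scaling. It was also 3 at 1.5-fold. Over all genes the numbers higher and lower were 2817 and 1200 without a filter, 524 and 223 with 10 reads in both libraries, 278 and 141 with a mean of at least 50, 2279 and 1014 at 1.5-fold, and 604 and 99 with the whole interval. The condensin to cohesin ratio was 0.686 without Smc4 and Smc1a, and the condensin I to condensin II ratio was 0.752 with all condensin II subunits counted, the opposite direction. The condensin to cohesin ratio was not computed with Ncapd3 and Ncaph2 included. At the 99% level and under each scaling, 7 to 9 subunit genes had an interval below no change and 0 above it; the calls lost were those of Ncaph (both total-read scalings and the 99% level) and Rad21 (total reads without Rn45s). Of the related genes, 19 to 22 lay below and 4 to 6 above no change, in alternatives chosen after seeing the data.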
